A study of Mus musculus with 6 samples.

Results

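The cytoskeleton of the neuron was followed through 10 genes: the neurofilament subunits Nefl, Nefm, Nefh and Ina, the tubulin isotypes Tubb3, Tubb6 and Tuba4a, and the microtubule-binding proteins Mapt, Map1b and Stmn2. They were taken from the 41386 genes of the deposited table by gene name, which found 9 of them. Mapt was located on an unnamed row whose pathway text names it and which lies between Sppl2c and Kansl1, with 5 of 6 neighboring genes the same as in the RefSeq annotation. Hippocampal RNA of wild type C57BL/6 mice, 56 days old, was sequenced in 3 libraries after ischemia/reperfusion (I/R) and 3 libraries after sham operation. In the I/R group a filament closed the left middle cerebral artery for 1.5 h, followed by 24 h of reperfusion, whereas sham-operated mice had the same surgery with no filament inserted. The ipsilateral hippocampus was taken, and the methods of the study describe pools of 3 hippocampi for its profiling, so the spread between libraries is one between pools and not between single mice. Libraries held 37493042 to 44788547 counts.

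Neurofilaments are the intermediate filaments of neurons. They assemble from a light (Nefl), a medium (Nefm) and a heavy (Nefh) chain together with alpha-internexin (Ina), and they fill the axon and set its caliber. Microtubules are polymers of alpha- and beta-tubulin. They carry axonal transport and are stabilized by proteins such as tau (Mapt) and MAP1B, whereas stathmins such as Stmn2 bind free tubulin and make microtubules more dynamic. The tissue is a mixture of cells, so fewer neurons and less of a transcript per neuron cannot be told apart in any of the values that follow.

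Levels are given as CPM, the counts relative to the library size after scaling by trimmed means (TMM), and all 10 genes passed the filter on low counts. After I/R, 8 of the 10 genes were lower and Tubb6 was higher by edgeR's quasi-likelihood test, with an adjusted p under 0.05 and a change of more than 1.2-fold. Nefh did not pass. Across all 18569 tested genes, 41.8% were called, 21.8% as higher and 19.9% as lower. The median log2 fold change of the 10 genes was -0.67, against 0.03 over all tested genes. For each of the 10 genes the 3 I/R libraries lay apart from the 3 sham libraries, which was so for 57.4% of tested genes. With 3 libraries against 3, the exact two-sided permutation test gave p = 0.1 for every one of them, which is the smallest p this design allows. In CPM, I/R replicate 1 was the library farthest from sham for 10 of 10 genes, as the plot of levels by library shows. For Nefm this rests on 202 against 203 and 207 CPM. As FPKM, without TMM, Nefm was highest among the I/R libraries in replicate 1 (66.5). For how many of all tested genes replicate 1 was the farthest was not counted.

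**Figure D1:**
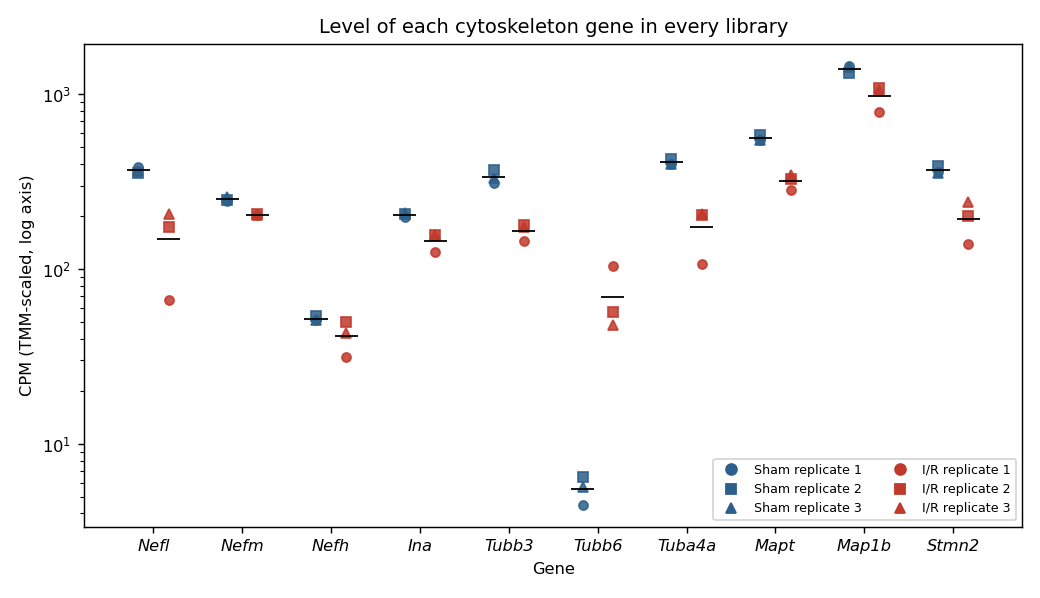
Level of the 10 cytoskeleton genes in each library, as CPM (TMM-scaled) on a log axis, with sham in blue, I/R in red and a black line at the group mean (n = 3 each). Tubb6 was the gene with I/R points above the sham points, and I/R replicate 1 (red circles) was the I/R library farthest from sham for every gene. For Nefm the I/R points nearly coincide.

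Several lists of cell type markers differed between the groups. Summed over 10 pan-neuronal genes, the level was 2821 to 5459 CPM after I/R, against 8853 to 9224 CPM in sham, with 7 of the 10 called lower and 0 at zero counts in any library. Of 8 markers of hippocampal neurons, all detected in every library, 7 were called lower, and their sum was 1091 to 3315 CPM after I/R, against 8288 to 8425 CPM in sham. Neuronal markers did not all fall alike. Of 6 markers of GABAergic interneurons, 4 were called lower, and their sum was 759 to 835 CPM after I/R, against 995 to 1058 CPM in sham. Their median log2 fold change was -0.33, against -0.97 for the pan-neuronal genes and -1.38 for the hippocampal markers. Of 7 markers of infiltrating myeloid cells, 6 were called higher, and their sum was 132 to 296 CPM after I/R, against 6.13 to 9.45 CPM in sham, with Ms4a7 at zero counts in at least 1 library. I/R replicate 1 had the lowest neuronal and the highest myeloid sum. The part of these shifts in the changes of the cytoskeleton genes was not tested. The ratios to neuronal genes given further on do not separate fewer neurons from less of a transcript per neuron. Choroid plexus markers (0 of 6 called) summed to 32.4 to 3605 CPM after I/R, against 36.0 to 4402 CPM in sham, and were low in I/R replicate 3 and sham replicate 1. Without these 2 libraries, an omission chosen after seeing the data, 7 of the 10 genes were called, with Nefm and Map1b no longer passing. In that setting 27.9% of all tested genes were called.

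Nefl encodes the light chain, the core on which the other chains assemble, and lies on chromosome 14 from 61320992 to 61326260 on the plus strand (BALB/cJ assembly, identifier MGP_BALBcJ_G0021474). Its level was 66.1, 173 and 208 CPM in I/R replicates 1 to 3 and 381, 356 and 365 CPM in the sham replicates. All I/R libraries lay below all sham libraries, and the I/R libraries differed among themselves by 3.14-fold, against 1.07-fold within sham. The mean was 149 ± 73.8 CPM after I/R, against 368 ± 12.6 CPM in sham (SD, n = 3 each), which is 59.5% lower in the fit. On the log2 scale the difference was -1.30 with a standard error (SE) of 0.36, and its 95% interval ran from -2.12 to -0.48 (edgeR adjusted p 0.0206). Of all tested genes, 2.45% had a lower log2 fold change. The call rested on 3 sham libraries: without sham replicates 1, 2 or 3 in turn, the edgeR adjusted p was 0.0586, 0.0621 and 0.0554, although the log2 fold change stayed between -1.33 and -1.28. Over all alternatives the adjusted p ran from 3.52e-07 to 0.113. When I/R replicate 1 was omitted the difference shrank to -0.95, and the call held.

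Nefm, the medium chain, is on the minus strand of chromosome 14 from 61319731 to 61362908 (MGP_BALBcJ_G0021473), an interval that contains the whole of Nefl. It measured 202, 207 and 203 CPM after I/R, against 245, 248 and 257 CPM in sham. The I/R libraries were closely alike, with a coefficient of variation of 1.27% where that of Nefl was 49.5%, and all lay below sham. The change was much smaller than for Nefl, at -0.29 on the log2 scale (SE 0.08, edgeR adjusted p 0.0254). It was lost without I/R replicate 2 or any 1 sham library (edgeR adjusted p of 0.0590 to 0.107), and it depended on the scaling between libraries. With library size alone it was -0.04 (edgeR adjusted p of 0.748, over all alternatives 0.000768 to 0.748), and the authors' FPKM values of Nefm, which are scaled by the library total without TMM, at 61.5 to 66.5 after I/R, against 64.2 to 67.3 in sham, overlapped.

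Nefh, the heavy chain, whose long phosphorylated tail projects from the filament, spans 1867014 to 1876162 on the minus strand of chromosome 11 (MGP_BALBcJ_G0017933). Its level was 31.5, 49.7 and 43.2 CPM after I/R, against 51.0, 54.1 and 51.1 CPM in sham. Replicate 2 of I/R came close to the lowest sham library, and replicate 1 was well below. The log2 fold change was -0.33 with a 95% interval from -0.69 to 0.03, and the edgeR adjusted p was 0.129. Without I/R replicate 2 it was -0.50 and passed (edgeR adjusted p of 0.0422, over all alternatives 0.0422 to 0.655), so this library decided whether Nefh was called. As FPKM, the groups of Nefh overlapped.

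Ina encodes alpha-internexin, a chain of central neurons, and is on chromosome 19 from 44497285 to 44508159 on the plus strand (MGP_BALBcJ_G0025190). It measured 124, 156 and 156 CPM after I/R, against 197, 207 and 209 CPM in sham. Every I/R library was below every sham library, and the log2 fold change was -0.49 (SE 0.11, edgeR adjusted p 0.00905). With library size alone the change was -0.24 and did not pass (edgeR adjusted p of 0.0546, over all alternatives 6.35e-05 to 0.0546).

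Because the 4 chains make 1 polymer, their proportions were compared within each library, where the scaling between libraries plays no part. FPKM also divide by a length, which for some genes is shorter than the length listed in the table, so the size of a share or ratio depends on the length used, whereas the fold by which a ratio differs between the groups does not. Summed over the chains, the level was 142 to 189 FPKM after I/R, against 230 to 238 FPKM in sham. Nefl made up 15.8%, 29.9% and 34.4% of this sum in I/R and 43.9%, 41.5% and 41.7% in sham. Nefm made up 46.7%, 34.5% and 32.5% after I/R, against 27.3%, 27.9% and 28.3% in sham. The light chain was therefore the most abundant of the 4 transcripts in every sham library, whereas in I/R replicates 1 and 2 the medium chain was, and the same order held with the listed lengths.

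The mean share of Nefl was 26.7 ± 9.71% after I/R, against 42.4 ± 1.34% in sham (SD, n = 3 each), a difference of -15.7 percentage points. The mean shares of the other chains were higher in I/R, by 10.1 points for Nefm, 4.03 points for Ina and 1.54 points for Nefh. None of these shares overlapped between the groups, and each had an exact permutation p of 0.1, or 0.117 after adjustment over 14 shares. The ratio of Nefl to Nefm on the FPKM scale was 0.338, 0.867 and 1.06 after I/R, against 1.61, 1.49 and 1.47 in sham. In contrast, the ratio of Nefh to Nefm overlapped between the groups, at 0.142 to 0.219 after I/R, against 0.182 to 0.200 in sham (exact permutation p of 0.9). The counts of these chains carry a limit. In the GENCODE M21 transcripts, 31.8% of the 50-base stretches of Nefl also lie in transcripts of another gene, most often Nefm. So do 18.6% of those of Nefm, most often in Nefl, and 12.8% of those of Ina, most often in Nt5c2, but 0% of those of Nefh. No source states whether reads were counted by strand.

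**Figure D2:**
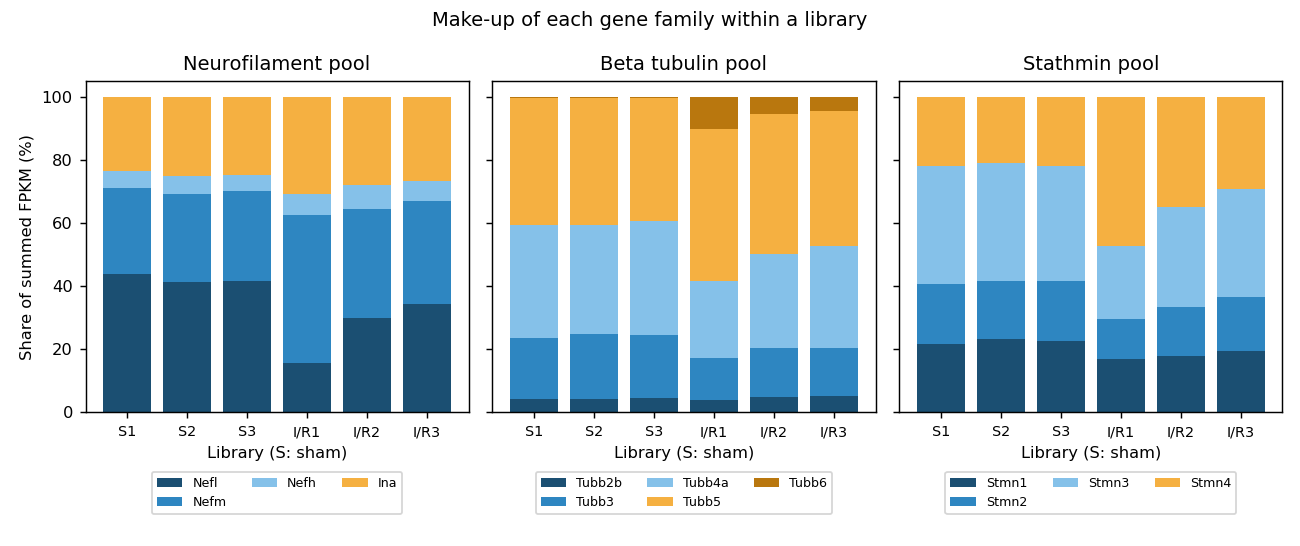
Make-up of the neurofilament, beta-tubulin and stathmin transcripts within each library, as percent of the summed FPKM (S, sham; Tubb1, below 0.1% everywhere, is not drawn). Nefl was 41.5% to 43.9% of the neurofilament sum in sham, against 15.8% to 34.4% after I/R, Tubb6 was 4.53% to 10.1% of the beta-tubulin sum after I/R, and Stmn4 was larger in each I/R bar than in each sham bar.

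Among the tubulins, the neuronal isotypes and Tubb6 moved in opposite directions. Tubb3 encodes class III beta-tubulin, the isotype used to mark neurons, on chromosome 8 from 121970126 to 121980718, plus strand (MGP_BALBcJ_G0034228). It measured 145, 179 and 173 CPM after I/R, against 310, 367 and 333 CPM in sham. The groups were far apart relative to their spread, with means of 166 ± 18.1 and 337 ± 28.5 CPM. Tubb3 fell by 1.02 on the log2 scale (SE 0.12, edgeR adjusted p 0.000849), and the call held in all 17 alternative settings, where the log2 fold change ranged from -1.12 to -0.76.

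Tuba4a encodes an alpha-tubulin of mature neurons that, unlike most alpha-tubulins, is made without a C-terminal tyrosine. It lies on chromosome 1 from 73197913 to 73203550 on the minus strand (MGP_BALBcJ_G0016117). Its level was 107, 204 and 207 CPM after I/R, against 397, 427 and 398 CPM in sham. Replicate 1 stood well below the other I/R libraries, and all 3 were below sham. The log2 fold change was -1.24 (SE 0.23, edgeR adjusted p 0.00477), with 2.90% of tested genes having a lower one, and it was called in all 17 alternatives. In GENCODE M21, 35.4% of the 50-base stretches of Tuba4a also lie in transcripts of another gene, most often Stk16, so reads there may have been left out or shared.

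The promoters of these 2 tubulin genes are shown because their transcripts fell together and kept their calls in every setting. They run from 250 bases before to 50 bases after the annotated start (RefSeq, GRCm38.p6, 5′ to 3′ on the strand of the gene), with Tubb3 at chr8:123411303-123411602 on the plus strand and Tuba4a at chr1:75219245-75219544 on the minus strand. Capitals mark the GC box, GGGCGG on either strand.
Tubb3: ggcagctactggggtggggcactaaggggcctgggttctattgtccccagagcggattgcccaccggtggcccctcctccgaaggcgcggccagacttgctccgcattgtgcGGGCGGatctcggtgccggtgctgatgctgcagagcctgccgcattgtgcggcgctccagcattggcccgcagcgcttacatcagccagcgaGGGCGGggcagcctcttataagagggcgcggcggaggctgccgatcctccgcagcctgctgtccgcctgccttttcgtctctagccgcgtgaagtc
Tuba4a: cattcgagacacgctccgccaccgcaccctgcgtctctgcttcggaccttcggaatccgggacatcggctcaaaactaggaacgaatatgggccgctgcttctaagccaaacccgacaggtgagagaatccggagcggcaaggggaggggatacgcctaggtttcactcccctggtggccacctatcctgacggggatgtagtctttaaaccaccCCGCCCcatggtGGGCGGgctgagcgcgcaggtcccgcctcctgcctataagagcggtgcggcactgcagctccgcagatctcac
Each holds 2 GC boxes, as do the promoters of Map1b and Ina, and 35.7% of 32851 promoters of this length hold at least 1. Their GC content was 67.3% for Tubb3 and 62.0% for Tuba4a, against a median of 52.7% over all promoters. None of the 4 windows matched the cyclic AMP response element TGACGTCA (1.79% of promoters) or the AP-1 site TGAGTCA (5.20%), both strands searched, and none of these motifs contains another. Among the 4, TATAAA was found in the window of Map1b, and in 13.6% of all promoters.

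Tubb6 encodes class V beta-tubulin, a minor isotype of many tissues, and is on chromosome 18 from 64889068 to 64901299, plus strand (MGP_BALBcJ_G0024489). In sham it had the lowest level per length of the 10 genes, with 175, 264 and 194 counts, or 4.48, 6.50 and 5.64 CPM. In I/R it had 4735, 2268 and 1914 counts, or 104, 56.7 and 47.9 CPM. Every I/R library exceeded every sham library, and replicate 1 was 2.17 times replicate 3. Tubb6 rose 12.5-fold, or by 3.65 on the log2 scale (SE 0.32, 95% interval from 2.92 to 4.38, edgeR adjusted p 0.000351). It was called in all 17 alternatives, with log2 fold changes between 3.24 and 3.93, of which the lowest came from leaving out I/R replicate 1.

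Within the beta-tubulin transcripts, of which 6 of 8 listed isotypes were found, Tubb6 was 0.295%, 0.387% and 0.360% of the summed FPKM in sham and 10.1%, 5.30% and 4.53% in I/R. Tubb3 was 19.2%, 20.5% and 20.0% in sham and 13.2%, 15.7% and 15.4% in I/R. Neither share overlapped between groups (exact permutation p of 0.1, adjusted 0.117). The ratio of Tubb3 to Tubb6 was 65.1, 53.1 and 55.6 in sham and 1.31, 2.97 and 3.40 in I/R, so in I/R replicate 1 the neuronal isotype exceeded Tubb6 by less than in any other library. Tubb4a, an isotype of neurons and oligodendrocytes, made up 28.8% after I/R, against 35.4% in sham, and the widely expressed Tubb5 45.1% and 39.9%. The order of these isotypes rests on the length, since with the listed lengths Tubb5 was 28.4% and 24.2% and Tubb4a 37.5% and 44.6%. Tubb2a and Tubb4b were not analyzed here.

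The gene whose profile over the 6 libraries was nearest to that of Tubb6 was Vim, which encodes vimentin, an intermediate filament of glia, endothelium and mesenchyme. Nearness was the root mean square difference of centered log2(CPM + 1), here 0.144, among named genes with a mean of at least 10 CPM. The ratio of Tubb6 to Vim on the FPKM scale was 0.118, 0.118 and 0.110 after I/R, against 0.0831, 0.119 and 0.114 in sham, which overlapped (exact permutation p of 0.7). Vim was picked for its nearness over these same 6 libraries, so this overlap follows largely from that choice and is no separate support. Markers of endothelium were called higher in 6 of 6 cases, with sums of 318 to 532 CPM after I/R, against 192 to 194 CPM in sham and no marker at zero counts. Astrocyte markers were called lower in 4 of 6 cases and higher in 1, with sums of 2649 to 3355 and 4944 to 5203 CPM, and 3 of 6 microglia markers were higher and 2 lower, at 232 to 323 and 219 to 249 CPM. The part of these cells in the change of Tubb6 was not tested.

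**Figure D3:**
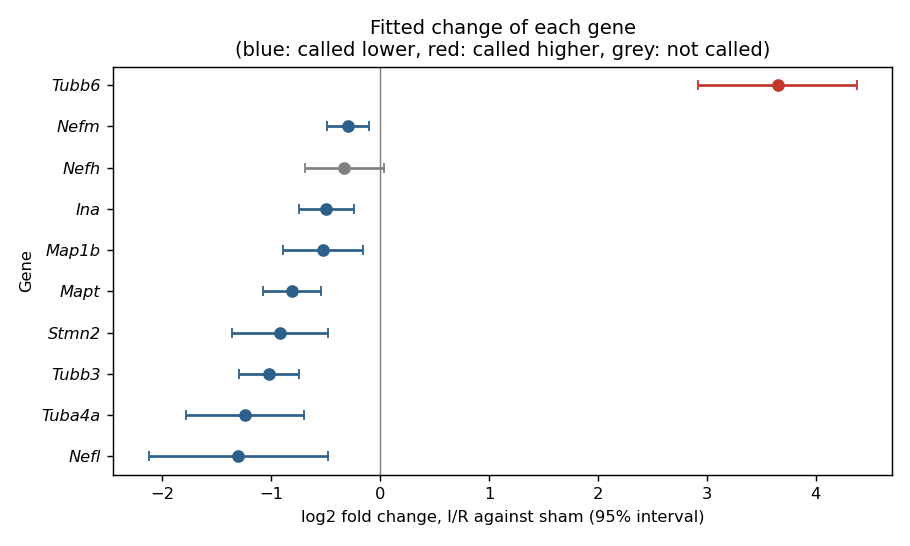
Fitted log2 fold change of each gene, I/R against sham, with its 95% interval (edgeR, 3 libraries a group). Tubb6 stood at 3.65, the other 9 genes between -1.30 (Nefl) and -0.29 (Nefm), and the interval of Nefh reached 0.03.

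Of the microtubule-binding genes, Mapt encodes tau, which binds along axonal microtubules. Its row is on chromosome 11 from 103240093 to 103339811, plus strand (MGP_BALBcJ_G0019216). It measured 283, 327 and 344 CPM after I/R, against 545, 582 and 547 CPM in sham. The spread within a group was small against the gap, with means of 318 ± 31.5 and 558 ± 20.7 CPM. Mapt fell by 0.81 on the log2 scale (SE 0.12, edgeR adjusted p 0.00165), which is 43.0% lower.

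Map1b encodes a microtubule-associated protein of growing axons and dendrites, on chromosome 13 from 98031013 to 98128734, minus strand (MGP_BALBcJ_G0020828). It measured 788, 1083 and 1052 CPM after I/R, against 1449, 1314 and 1429 CPM in sham. All I/R libraries were lower, replicate 1 the most. The log2 fold change was -0.52 (SE 0.16, edgeR adjusted p 0.0317), and this call was among the least stable. It was lost with library size alone (-0.27, edgeR adjusted p of 0.127) and when any 1 of the 3 sham libraries was left out (edgeR adjusted p of 0.0739 to 0.0999, over all alternatives 0.000657 to 0.127).

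Stmn2 encodes stathmin-2 (SCG10), a neuronal stathmin of growth cones that takes part in axon regrowth. It is on chromosome 3 from 5318185 to 5371434, plus strand (MGP_BALBcJ_G0027025). Its level was 139, 202 and 242 CPM after I/R, against 361, 386 and 355 CPM in sham. The I/R libraries differed by 1.75-fold among themselves and all lay below sham. The log2 fold change was -0.92 (SE 0.19, edgeR adjusted p 0.00666), and the call was lost in 1 of 17 alternatives, the demand for more than a 2-fold change.

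The other stathmins did not all follow. Stmn1 and Stmn3 fell by similar amounts, with log2 fold changes of -0.93 and -0.92 (edgeR adjusted p of 0.00286 and 0.0125). Stmn4, another neuronal member, was 269, 235 and 216 CPM after I/R, against 216, 227 and 212 CPM in sham. Its groups overlapped, and its log2 fold change of 0.14 (95% interval from -0.11 to 0.38) did not pass, although it did with library size alone. The ratio of Stmn2 to Stmn4 on the FPKM scale, a comparison not planned beforehand, was 0.268, 0.447 and 0.582 after I/R, against 0.867, 0.883 and 0.869 in sham. Stmn4 made up 47.3%, 34.9% and 29.3% of the stathmin sum in I/R and 22.0%, 20.9% and 21.8% in sham, whereas the mean share of Stmn2 was 15.1 ± 2.22% and 18.8 ± 0.318% (SD, n = 3 each). None of these overlapped (exact permutation p of 0.1 each). With the listed lengths the mean share of Stmn2 was 9.74% after I/R and 11.7% in sham, again without overlap.

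To compare levels between genes, values per length are needed, and the lengths behind the FPKM were checked first. The counts and FPKM imply a length equal to the listed one, within 1%, for Nefl, Nefh, Ina, Tubb3, Tubb6 and Map1b, but a shorter one for Mapt (1390 of 5250 bases), Tuba4a (1166 of 2840), Stmn2 (1608 of 3409) and Nefm (3503 of 3668). The order therefore differed between both lengths and is given for each. By FPKM in sham it ran from Mapt (367 ± 10.9 FPKM, SD, n = 3) and Tuba4a (320 ± 11.2) through Stmn2 (209 ± 7.87), Tubb3 (165 ± 12.8), Map1b (108 ± 6.42) and Nefl (99.4 ± 4.07) to Nefm (65.3 ± 1.78), Ina (57.5 ± 1.63), Nefh (12.4 ± 0.328) and Tubb6 (2.88 ± 0.507). The neighbors Map1b and Nefl overlapped in range, and the other neighbors did not. After I/R, Mapt was at 249 ± 14.2 FPKM. Next came Tuba4a (160 ± 47.1), Stmn2 (131 ± 30.4), Tubb3 (96.6 ± 6.52) and Map1b (89.3 ± 11.2), each overlapping the next. Nefl, the most abundant neurofilament chain in sham, fell to 47.4 ± 22.2 FPKM, below Nefm (63.7 ± 2.56) and within the range of Ina (48.6 ± 3.95), and Tubb6 reached 43.8 ± 21.2 FPKM, which overlapped Nefl. Nefh was at 11.7 ± 2.19 FPKM.

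With counts divided by the library total and the listed length, an order chosen after seeing the data and given in the same unit, Tubb3 came before the other 9 genes in sham (165 ± 12.8, SD, n = 3). Tuba4a (mean 131) followed, then Map1b (108 ± 6.42), Nefl (99.4 ± 4.07), Stmn2 (98.5 ± 3.71) and Mapt (97.2 ± 2.88), each overlapping the next in range, and Nefm (62.3 ± 1.70) lay below Mapt without overlap. After I/R, Tubb3 (96.6 ± 6.52) and Map1b (89.3 ± 11.2) overlapped each other and had higher means than Mapt (66.0 ± 3.76), Tuba4a (65.8 ± 19.3), Stmn2 (61.8 ± 14.3) and Nefm (60.8 ± 2.45). On either length, Nefl stood above Nefm in sham and had a mean below that of Nefm after I/R, Tubb6 had the lowest level in sham, and Nefh had the lowest after I/R.

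The next question was how each gene stood against other neuronal transcripts of the same library. A reference was formed from 10 pan-neuronal genes (Rbfox3, Snap25, Syt1, Syp, Eno2, Thy1, Syn1, Celf4, Elavl4 and Uchl1), and its mean log2 CPM was 7.88, 8.67 and 8.80 after I/R, against 9.38, 9.37 and 9.34 in sham, a difference of -0.91. Relative to it, Nefl was lower in all 3 I/R libraries than in any sham library, with a mean difference of -0.55 on the log2 scale, and so was Tuba4a, with a difference of -0.38. The other neurofilament chains went the other way. Nefm was higher relative to the reference by 0.62, Nefh by 0.56 and Ina by 0.41, Map1b by 0.38 and Tubb6 by 4.50, in each case with no overlap between groups. Each of these 7 had an exact permutation p of 0.1, or 0.143 adjusted over 10 genes. The reference itself differed by -0.91, so a gene with unchanged CPM would stand above it after I/R. Nefm, Nefh, Ina and Map1b had lower mean CPM after I/R, but by less than the reference. How many of all tested genes lie above or below it without overlap was not counted.

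Tubb3, Mapt and Stmn2 overlapped between the groups on this scale, with differences of -0.11, 0.10 and -0.04. The sign of each of these 3 turned with the reference or the libraries used, so no direction is given for them. Values in single libraries show how far replicate 1 stood apart. Relative to the reference, Nefm was at -0.22, -0.97 and -1.13 after I/R, against -1.44, -1.42 and -1.33 in sham, so that I/R replicate 1 was the farthest from sham. Tuba4a, by comparison, was at -1.13, -0.99 and -1.10 after I/R, against -0.74, -0.63 and -0.70 in sham, with the I/R libraries close together. Without I/R replicate 1, 4 genes lay below sham without overlap instead of 2, so the overlap of Tubb3 and Mapt rested on this library. Tubb3 was at -1.18 and -1.36 in I/R replicates 2 and 3, against -1.10 to -0.85 in sham. Mapt was at -0.32 and -0.37, against -0.29 to -0.19. The differences shrank to -0.32 for Nefl, 0.35 for Nefm, 0.24 for Ina and 0.24 for Map1b, with Nefh at 0.46, Tuba4a at -0.35 and Tubb6 at 3.88.

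**Figure D4:**
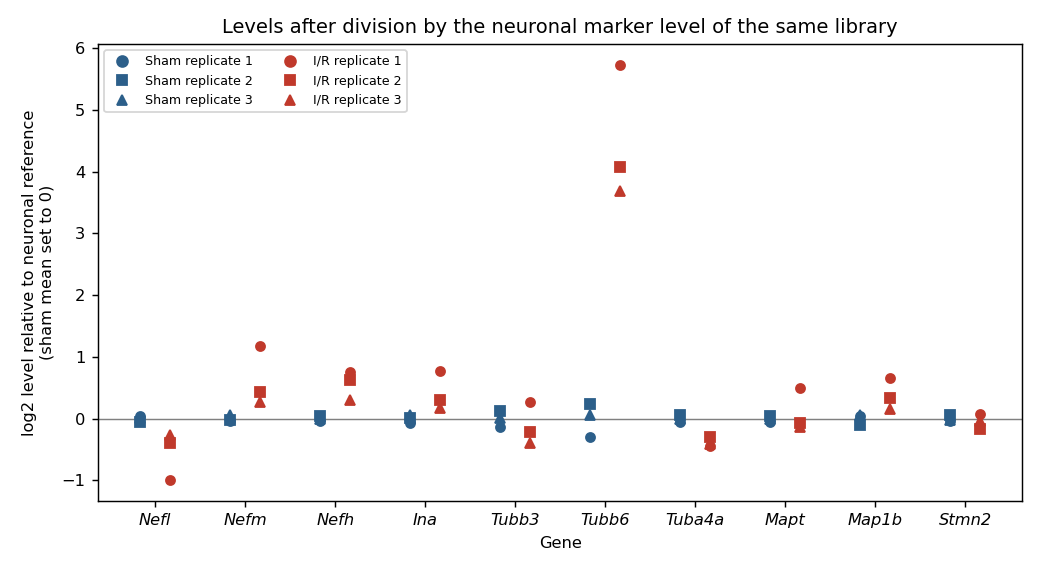
Level of each gene relative to the mean log2 CPM of 10 pan-neuronal genes in the same library, with the sham mean of each gene set to 0 (log2 scale, 1 point per library). Nefl and Tuba4a lie below 0 in every I/R library, Nefm, Nefh, Ina, Map1b and Tubb6 lie above every sham point, and Tubb3, Mapt and Stmn2 overlap sham.

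Further genes, of the cytoskeleton and of axon outgrowth and injury, were taken from 15 lists of 134 genes, of which 125 were found and 123 tested. Not all are neuronal or cytoskeletal, since the lists include Gfap, Vim, lamins and Atf3. Of the 123 tested, 54 were called lower (43.9%, against 19.9% of all tested genes) and 18 higher (14.6%, against 21.8%). The other 51 did not pass, and the median log2 fold change was -0.26. The list of other intermediate filaments gave 5 of the 18 higher calls, and that of axon outgrowth and injury gave 7. The share called lower, like the median, depended on the scaling. With library size alone 29 were called lower and 26 higher, and the median of all tested genes moved from 0.03 to 0.28. In that setting 8361 of all 18569 tested genes were called, 6334 of them higher, so calls of lower were fewer over all genes too. Without the 2 libraries with few choroid plexus counts, 32 were lower and 14 higher, and 27.9% of all tested genes were called.

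Of 11 other tested genes of intermediate filaments, lamins and filament linkers, 5 were called higher and 0 lower. Nes (nestin) rose by 3.71, Vim by 3.51 and Gfap, the filament of astrocytes, by 2.31 on the log2 scale, with edgeR adjusted p of 0.000681, 0.000291 and 0.000269. The other calls in this list were the lamin genes Lmna and Lmnb1, whose proteins line the nucleus, and Prph, a neuronal filament gene, was not called. Beside Tubb3 and Tubb6, 3 of 3 tested beta-tubulins were lower, too few to set against the 19.9% of all tested genes. Tubb4a was at -0.89, Tubb2b at -0.53 and Tubb5 at -0.42, although Tubb5 did not pass with library size alone. Tuba8 was at -1.03, and Tubg2, Tubd1 and Tubg1, of the gamma- and delta-tubulins, at -0.88, -0.49 and -0.33, the last 2 of them lost with library size alone.

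Of the spectrin and adducin genes, which tie the axonal cytoskeleton to the membrane, 6 of 6 tested were lower (5 of 6 with library size alone). A list of 6 genes is too short to set against the 19.9% called lower over all tested genes. The ankyrin genes of the list were not analyzed here. Add2, an adducin gene, fell by 1.19 on the log2 scale and Add1 by 0.84. Of 14 kinesin, dynein and dynactin genes, which move cargo along axonal microtubules, 10 were lower and 0 higher, with Dync1i1 at -1.03, Klc2 at -0.92 and Kif3a at -0.66, and with library size alone 4 were lower and 1 higher. Among 16 other structural microtubule-associated proteins, 5 were lower (3 lower and 1 higher with library size alone), led by Map6d1 at -1.31, Map1a at -1.12 and Camsap3 at -0.81. Map1a encodes the close relative of MAP1B that prevails in mature neurons.

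Of 14 kinases that phosphorylate tau or neurofilaments, or their activators, 8 were lower and 1 higher (5 and 2 with library size alone). The activators of Cdk5 were among them, with Cdk5r2 at -1.21 and Cdk5r1 at -0.92, and Mapk10 was at -0.86. The 1 higher gene, named after its value was seen, was Mark3 at 0.34 (edgeR adjusted p of 0.00633). Enzymes that modify tubulin were lower in 7 of 18 cases, with Agbl4 at -1.45 and Agtpbp1 at -0.99, both of which remove glutamate residues from tubulin tails, and Ttll5 at -0.50. Ttll5 was lost with library size alone. With library size alone this list had 2 lower and 2 higher calls. Plus-end binding proteins were split, with Mapre1 (EB1) higher by 0.72 and 5 of 8 lower, including the neuronal Mapre3 (EB3) at -0.71 and Clasp2 at -0.71 (3 of 8 with library size alone). The collapsin response mediator genes were also split, with Dpysl3 at 0.80, Crmp1 at -0.68 and Dpysl4 at -0.48, and 3 of 5 lower. With library size alone 1 of the 5 was lower, and Dpysl4, at -0.23 (edgeR adjusted p of 0.0735), was not called. The call of Crmp1 was lost without sham replicate 1 or 2.

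In 2 further short lists, as in every list here of 9 genes or fewer, the counts are too few to set against the shares of all tested genes. These shares were 21.8% called higher and 19.9% called lower. Of 5 tubulin folding cofactors 2 were higher (Tbce at 0.48 and Tbca at 0.43, the latter lost without the 2 libraries with few choroid plexus counts), and of 6 severing enzymes 1 was. That one, Fignl1 at 1.35, was not called when I/R replicate 3, sham replicate 2 or sham replicate 3 was left out (0.0610, 0.0626 and 0.0501 as edgeR adjusted p), nor without the 2 libraries with few choroid plexus counts (0.0916). Of 9 genes of axon outgrowth and injury, 7 were higher, as also with library size alone. Atf3, a transcription factor induced in injured neurons and in other cells, was at 6.43, Gadd45a at 2.41 and the neuropeptide gene Gal at 1.92 (edgeR adjusted p of 0.000216, 0.000680 and 0.0105). The 1 lower gene, named after its value was seen, was Basp1, a growth cone protein gene, at -0.69.

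**Figure D5:**
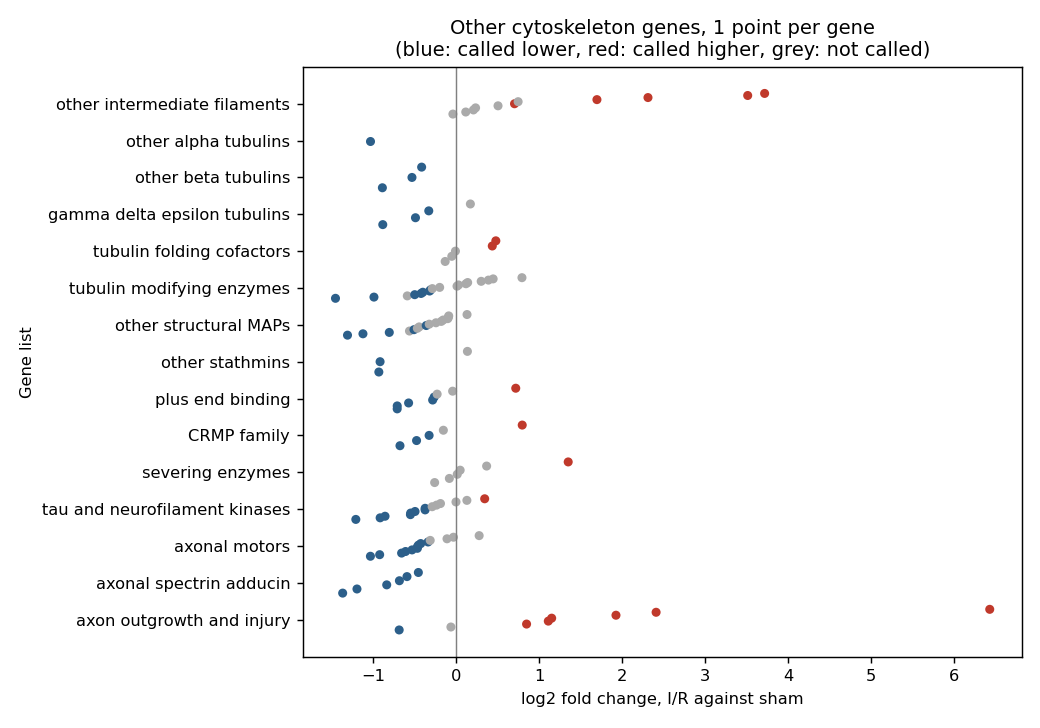
Log2 fold change, I/R against sham, of each tested gene in 15 lists of genes of the cytoskeleton and of axon outgrowth and injury, not all of them neuronal. There is 1 point per gene, in blue if called lower, red if called higher and grey if not called. Sprr1a, at 0 counts in every sham library, is not drawn. Spectrin and adducin genes lie left of 0 at 6 of 6, whereas axon outgrowth and injury genes lie mostly to the right, at 7 of 9 called higher.

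Profiles nearest to those of the other 9 genes were drawn from the same rule as for Tubb6. They were Snph, which encodes an anchor of axonal mitochondria, for Tuba4a (0.0304), Abcg4 for Tubb3 (0.0337), Zbtb18 for Nefl (0.0381), Fam57b for Mapt (0.0160) and Map2k1 for Stmn2 (0.0272). For Nefm, Nefh, Ina and Map1b they were Ints3 (0.0260), Rhob (0.0416), Spred2 (0.0210) and Tbck (0.0295). Each value is a root mean square difference in log2 units over the 6 libraries. The likeness is a description of 6 libraries that fall into 2 groups.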

How the data were processed

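Total RNA of hippocampus was sequenced in 3 I/R and 3 sham libraries, grouped and numbered by the sample titles. The 10 genes and the gene and marker lists were chosen with earlier results of these data known. The authors aligned reads with TopHat2 to an Ensembl genome and counted them per gene with HTSeq. The deposited table holds raw counts for 41386 genes, and the authors' FPKM, which are counts divided by the library total and by a length that the table does not list. It equals the listed gene length within 1% for 38.8% of the 20844 genes with at least 10 counts in a library and is shorter for the others, and how it was set is not given in the sources used here. The submitters' processing notes also name Bowtie 0.12.2 and mm8, without a role. Identifiers are those of the BALB/cJ strain (40303 genes) and of 1083 assembled loci, whereas the mice are labelled C57BL/6. How strand and multiply aligned reads were treated is not given in the sources used here, and both could lower the counts of overlapping genes. The authors' own fold changes, p-values and group means in the table were not used.

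The test on counts was that of edgeR 4.0.16, run in R 4.3.3 (filterByExpr, TMM, glmQLFit with robust estimation, glmQLFTest, no covariates), with Benjamini-Hochberg adjustment over 18569 genes. Calls needed an adjusted p under 0.05 and a change over 1.2-fold either way. The SE was the size of the log2 fold change divided by the square root of F. CPM were relative to TMM-scaled library sizes, with TMM factors of 1.06 to 1.15 after I/R, against 0.908 to 0.920 in sham. Shares, ratios and relative levels were compared by exact two-sided permutation tests. The ratios of pairs of genes were not planned beforehand. Alternatives used DESeq2 1.42.0 (size factors and Wald test), library size alone, other filters on low counts, limma 3.58.1 on log2(FPKM + 1) and log2(FPKM + 0.1), other call rules, the replicate number as a block, and the omission of libraries. From each list at most 3 called genes were named, those with the largest absolute change and a mean of at least 1 CPM. A gene that this rule names is not reported here. The fit was tested on simulated counts in which 200 genes were changed, far fewer than were called in the data. Calls were made for 9.23% of genes changed 1.5-fold, 56.1% of those changed 2-fold and 80.6% of those changed 4-fold. Unchanged genes made up 6.06% of the calls. A gene that did not pass is therefore not shown to be unchanged. Same-numbered libraries deviated from their group means with correlations of -0.158, 0.0331 and -0.257, which gave no sign of pairing by number. With 3 libraries a group these correlations cannot exclude a shared batch. At 37493042 to 44788547 counts per library, the lowest count of the 10 genes was 175, and the spread between libraries set the precision. P-values test the difference between groups of these libraries, which are pools, and say nothing of the spread between single mice. A share of the alpha-tubulins was not formed, since Tuba1a, Tuba1b and Tuba1c were not matched by name.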

Additional observations from a re-analysis of the deposited data

How the results depend on the processing

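Tubb3, Tubb6 and Tuba4a were called in all 17 alternatives, and Mapt and Stmn2 in 16. In none of these did a log2 fold change of the 10 genes change sign. The number called lower went from 8 to 5 with library size only, with limma on log2(FPKM + 1) and with limma on log2(FPKM + 0.1), where Nefm, Ina and Map1b did not pass, and to 3 at a fold over 2, where 4 genes were called in all. Of all tested genes, 45% were called with library size only, 43.9% and 44.9% with limma, and 14.9% at a fold over 2. Leaving out single libraries gave 5 to 8 lower and 6 to 9 called, with 5 lower without sham replicate 1, 2 or 3. The share of all tested genes called changed as well, from 41.8% in the main fit. It was 34.3% to 42.6% without 1 I/R library and 27.8% to 29.3% without 1 sham library. Nefl also did not pass with no filter on low counts (edgeR adjusted p of 0.113). Of the 123 tested genes of the 15 lists, 72 were called, and 19 (11 higher, 8 lower) at a fold over 2. The number lower, 54, was 29 with library size only and 30 with limma on FPKM at either pseudocount. Leaving out single libraries gave 54 to 77 called, 16 to 19 higher and 37 to 58 lower. Without I/R replicate 3 and sham replicate 1, an alternative chosen after seeing the data, 46 were called, 32 of them lower. There, 27.9% of all tested genes were called. With the replicate number as a block, 7 of the 10 genes were called (6 lower; Nefm and Map1b lost), as were 59 of the others, against 34.1% of all tested genes. The shares did not change under the block, which leaves a mean difference as it is. Under the block the log2 fold change was -0.29 for Nefm and -0.53 for Map1b. No sign of pairing by number was seen, and what the lost calls reflect was not tested. The share of Nefl in the neurofilament sum stayed between -19.5 and -10.2 points of difference. With the listed gene lengths, an alternative chosen after seeing the data, the share of Stmn2 in the stathmin sum differed by -1.97 points, and the other 6 shares moved by less than 1 SD. Relative to neuronal genes, 2 genes lay below sham in all I/R libraries, and 2 to 4 when single libraries were left out (4 without I/R replicate 1), while 5 lay above throughout. With the median of the reference 3 lay below and 4 above, and with Rbfox3 alone 2 and 5. The matching counts over all tested genes were not made. The sign turned for Tubb3 without I/R replicate 3 (0.030, with a range over omitted libraries from -0.30), for Stmn2 without I/R replicate 2 (0.022), and for Mapt with the median of the reference (-0.047), with Rbfox3 alone (-0.021) and without I/R replicate 1 (-0.10, with 0.21 without I/R replicate 3). The share of each alpha-tubulin was planned and not run. Groups of 3 libraries and pooled hippocampi limit the precision.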
